A study of Homo sapiens with 9 samples.

Results

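The zinc finger genes of human chromosome 19 were taken by name and place alone: every protein-coding gene that the count table puts on chromosome 19 and whose symbol is ZNF followed by a number, with or without a closing letter. Of 58929 genes in the table, 246 met this rule, and 238 of them carry the annotation zf-C2H2 for C2H2 zinc finger factors in the table itself. Their RNA was measured by poly(A)-selected RNA sequencing in FaDu cells, an established squamous carcinoma line of the hypopharynx, so of head and neck origin, that the labels call wild type. Each of 3 groups had 3 libraries, which the study describes as biological replicates: cells given the vehicle DMSO, samuraciclib or YKL-5-124, the compounds at 250 nM each. The treatment time is 48 h in the treatment protocol and 72 h in the series design. Both compounds are selective inhibitors of CDK7, a kinase that activates the cell cycle CDKs and, as part of the general transcription factor TFIIH, phosphorylates RNA polymerase II. All results come from 1 cell line.

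C2H2 zinc finger proteins form the largest family of human transcription factors. Each finger is a short fold held by a zinc ion, and rows of fingers read DNA. Many of the chromosome 19 genes arose by tandem duplication, lie in clusters, and encode a KRAB domain, through which the protein recruits TRIM28 (KAP1) and the histone methyltransferase SETDB1. KRAB zinc finger proteins are best known for silencing transposable elements and their remnants. The longest coding sequence of these genes in GENCODE v44 held between 1 and 39 C2H2 patterns, with a median of 13 (245 genes).

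The questions were which of these genes differed between each inhibitor and vehicle, where on the chromosome they lie, and what their promoters share. A gene was called higher or lower where edgeR's quasi-likelihood F-test gave a Benjamini-Hochberg adjusted p below 0.05 over all 16065 genes tested and the log2 fold change was beyond 0.5. Of the 246 genes, 34 had no count in any library, 27 had counts but stayed under the filter on low counts, and 185 were tested. Of these 185, 177 were above the filter level in all 9 libraries. Levels are in CPM, the count scaled by the library's size and TMM factor, and library totals lay between 18096180 and 28018126 counts. The tested genes were of modest abundance, with a median of 139.9 counts per library (quartiles 68.9 and 309.6). In bulk RNA, less RNA per cell and a smaller share of cells with the RNA cannot be told apart.

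The defining markers of the line were present. KRT5, a basal keratin, stood at 1763 to 2694 CPM over the 9 libraries, and EPCAM and TP63 were well expressed. Of the leukocyte markers, PTPRC and CD3E did not exceed 0.052 CPM and CD68 reached 0.328 CPM. The endothelial cadherin CDH5 stood at 18.7 to 31.0 CPM, although PECAM1 was below 0.21 CPM in every library. VWF, also endothelial, stood at 0.548 to 1.13 CPM. Fibroblast COL1A1 stood at 3.73 to 5.96 CPM, with COL1A2, COL3A1 and PDGFRA at or near 0. Some markers moved with treatment: CDH1 rose with both inhibitors (1.00 with YKL-5-124 and 0.80 with samuraciclib, log2), as did KRT17 (0.60 with each), KRT14 fell with YKL-5-124 (-0.50) and CDH5 fell with samuraciclib (-0.50). Their part in the results was not tested. RN7SL2, a gene for the RNA of the signal recognition particle, was low in DMSO replicate 3 (59.3 CPM), samuraciclib replicate 2 (24.9) and YKL-5-124 replicate 2 (56.3), while the highest library per group reached 801.7 to 980.8 CPM. Counts without these 3 libraries are given beside the main ones.

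Promoters of 6 genes are shown here for 2 clusters described further on, from ZNF175 to ZNF331 and from ZNF628 to ZNF446. The windows of these clusters differ in how often they hold ACTACATT, but CGGAAG (both strands) was in 60% of the windows of each. The sequences are RefSeq windows of GRCh38.p14, each running 5′ to 3′ on the gene's strand from 250 bases before the annotated start to 50 bases after it. Capitals mark CGGAAG or its reverse complement CTTCCG, the core of an ETS-type site, and ACTACATT or its reverse complement AATGTAGT. The first 2 belong to genes that rose with both inhibitors (minus strand, chr19:52048789-52049088 and chr19:52962832-52963131).
ZNF432: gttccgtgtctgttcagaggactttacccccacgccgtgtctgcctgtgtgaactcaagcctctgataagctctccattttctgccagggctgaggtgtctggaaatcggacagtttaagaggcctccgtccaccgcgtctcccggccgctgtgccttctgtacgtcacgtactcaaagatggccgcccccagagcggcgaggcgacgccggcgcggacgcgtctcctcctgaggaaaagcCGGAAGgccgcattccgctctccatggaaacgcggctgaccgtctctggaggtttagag
ZNF816: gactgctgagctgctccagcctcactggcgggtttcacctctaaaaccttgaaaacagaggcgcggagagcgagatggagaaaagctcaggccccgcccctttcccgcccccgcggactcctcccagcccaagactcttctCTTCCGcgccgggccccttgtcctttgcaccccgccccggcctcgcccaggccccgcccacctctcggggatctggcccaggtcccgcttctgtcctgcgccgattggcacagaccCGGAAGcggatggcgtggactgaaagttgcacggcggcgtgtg

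The next belongs to ZNF331, a gene at the edge of the same cluster that was called in neither comparison (plus strand, chr19:53520764-53521063).
ZNF331: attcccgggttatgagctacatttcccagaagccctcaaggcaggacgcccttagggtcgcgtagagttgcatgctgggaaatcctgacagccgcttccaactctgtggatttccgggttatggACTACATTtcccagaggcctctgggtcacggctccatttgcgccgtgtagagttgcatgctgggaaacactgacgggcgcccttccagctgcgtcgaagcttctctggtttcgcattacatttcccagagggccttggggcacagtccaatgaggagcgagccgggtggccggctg

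The last 3 belong to genes of the most distal cluster that fell with YKL-5-124 (ZNF587B, plus strand, chr19:57830049-57830348; ZNF772, minus strand, chr19:57477517-57477816; ZNF551, plus strand, chr19:57681727-57682026).
ZNF587B: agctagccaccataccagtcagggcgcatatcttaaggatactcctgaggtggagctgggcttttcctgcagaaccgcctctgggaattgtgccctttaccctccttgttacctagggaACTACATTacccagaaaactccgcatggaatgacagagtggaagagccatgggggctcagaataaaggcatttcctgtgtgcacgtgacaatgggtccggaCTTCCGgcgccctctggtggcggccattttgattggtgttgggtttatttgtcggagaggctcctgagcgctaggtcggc
ZNF772: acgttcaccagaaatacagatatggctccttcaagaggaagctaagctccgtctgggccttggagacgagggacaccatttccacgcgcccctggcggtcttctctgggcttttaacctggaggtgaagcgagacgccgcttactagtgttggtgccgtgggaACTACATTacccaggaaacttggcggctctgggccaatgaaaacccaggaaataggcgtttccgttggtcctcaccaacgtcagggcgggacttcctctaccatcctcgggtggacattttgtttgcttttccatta
ZNF551: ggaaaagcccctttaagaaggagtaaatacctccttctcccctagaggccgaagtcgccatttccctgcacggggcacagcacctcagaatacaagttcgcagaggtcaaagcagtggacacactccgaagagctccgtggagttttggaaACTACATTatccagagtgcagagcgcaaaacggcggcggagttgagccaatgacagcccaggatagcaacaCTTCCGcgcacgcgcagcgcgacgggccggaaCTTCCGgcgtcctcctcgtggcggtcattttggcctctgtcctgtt

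With YKL-5-124, 28 of the 185 zinc finger genes rose and 10 fell. The 15.1% called higher stood beside 11.9% of all genes tested, and the 5.41% called lower beside 9.93%. The median log2 fold change of the 185 genes was 0.12, against -0.01 for all protein-coding genes, and 105 of the 185 were above 0. That median was 0.0732 without YKL-5-124 replicate 1 and 0.0735 among genes with a mean count of at least 50. With samuraciclib, 25 genes rose (13.5%, against 8.17% of all genes) and 14 fell (7.57%, against 9.55%), and the median was again 0.12 (all protein-coding genes, -0.01). Counted in either direction, 38 and 39 of the 185 genes were called, beside 21.8% and 17.7% of all genes. The total was thus near the background, and the split between directions differed from it. Without the 3 libraries low in RN7SL2, 21 rose and 9 fell with YKL-5-124, and 18 rose and 13 fell with samuraciclib. Scaling by library size alone, which shifted the median of all genes by 0.14 with YKL-5-124, gave 43 higher and 5 lower in that comparison and a median of 0.248. Among the 82 tested genes clear of other gene models (under 5% of exon bases overlapped and no shared 100-base stretch, a choice made after seeing the data), 14 rose (17.1%) and 5 fell (6.10%) with YKL-5-124, and 8 rose (9.76%) and 5 fell (6.10%) with samuraciclib.

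The share of the sequenced RNA that came from the family as a whole hardly moved. CPM is such a share, so a change in step with total RNA would not be seen. Summed over the 246 genes, DMSO libraries stood at 2065 to 2128 CPM, samuraciclib libraries at 2110 to 2143 and YKL-5-124 libraries at 2010 to 2067. The ranges of DMSO and samuraciclib overlapped, while those of DMSO and YKL-5-124 overlapped only barely. Changes were also small gene by gene: beyond a log2 fold change of 1 the called genes were ZNF554, ZNF114 and the scarce ZNF223 with YKL-5-124 (ZNF223 passed the filter only through the inhibitor groups) and ZNF486, ZNF566, ZNF114, ZNF600 and ZNF587B with samuraciclib.

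Lists set beside the chromosome 19 genes were split more evenly or the other way. ZNF genes of other chromosomes (228 tested) had 21 higher and 19 lower with YKL-5-124, and 13 and 15 with samuraciclib. The other protein-coding genes of chromosome 19 (716 tested) had 81 higher and 90 lower with YKL-5-124, and 42 and 91 with samuraciclib. Protein-coding genes within the expression quartiles of the zinc finger genes (2395) had 387 higher and 274 lower with YKL-5-124, and 287 and 331 with samuraciclib. With YKL-5-124 their share called higher, 16.2%, was not below that of the zinc finger genes, while their share called lower, 11.4%, was above it. These counts are descriptions, since genes of a list are not replicates and no test compared the lists.

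**Figure D1:**
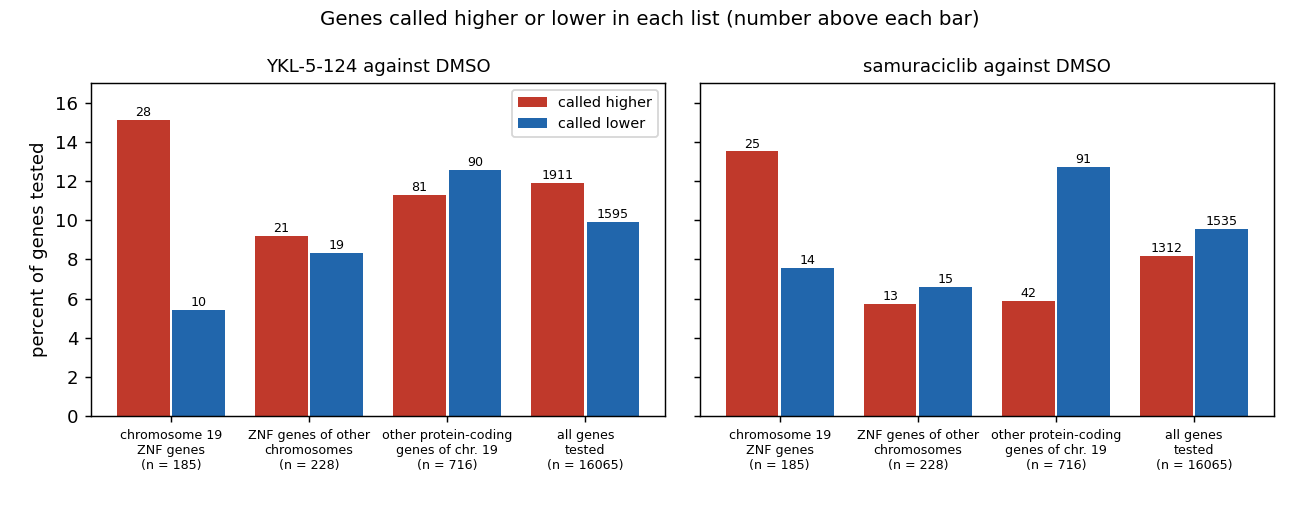
Percent of genes tested that were called higher (red) or lower (blue) with each inhibitor against DMSO, for 4 gene lists, with the number of genes above each bar. Among chromosome 19 ZNF genes, 28 were higher and 10 lower with YKL-5-124, and 25 and 14 with samuraciclib, while ZNF genes of other chromosomes had 21 and 19, and 13 and 15.

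Because both inhibitors were set against the same 3 DMSO libraries, their calls are not independent. Side by side, 16 genes were called higher with both, 6 lower with both, 55 with either and 0 in opposite directions. Among single genes, libraries of the 2 groups did not overlap for 94 of 185 (50.8%, against 56.8% of all genes) with YKL-5-124 and for 88 (47.6%, against 52.9%) with samuraciclib.

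The genes were grouped by neighbourhood, a new group starting where more than 1 Mb separated a gene from the next, and each group is named here by its outermost members. This gave 16 groups, and no test compared them. In the cluster from ZNF175 to ZNF331 (GRCh38, chr19:51571298-53580269, 39 genes, 30 tested), 12 genes rose (40% of those tested, against 11.9% of all genes) and 0 fell with YKL-5-124, with a median log2 fold change of 0.40. With samuraciclib 11 rose (36.7%, against 8.17%) and 0 fell, with a median of 0.44. Positive values were found for 25 of 30 genes with YKL-5-124 and for 27 of 30 with samuraciclib.

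**Figure D2:**
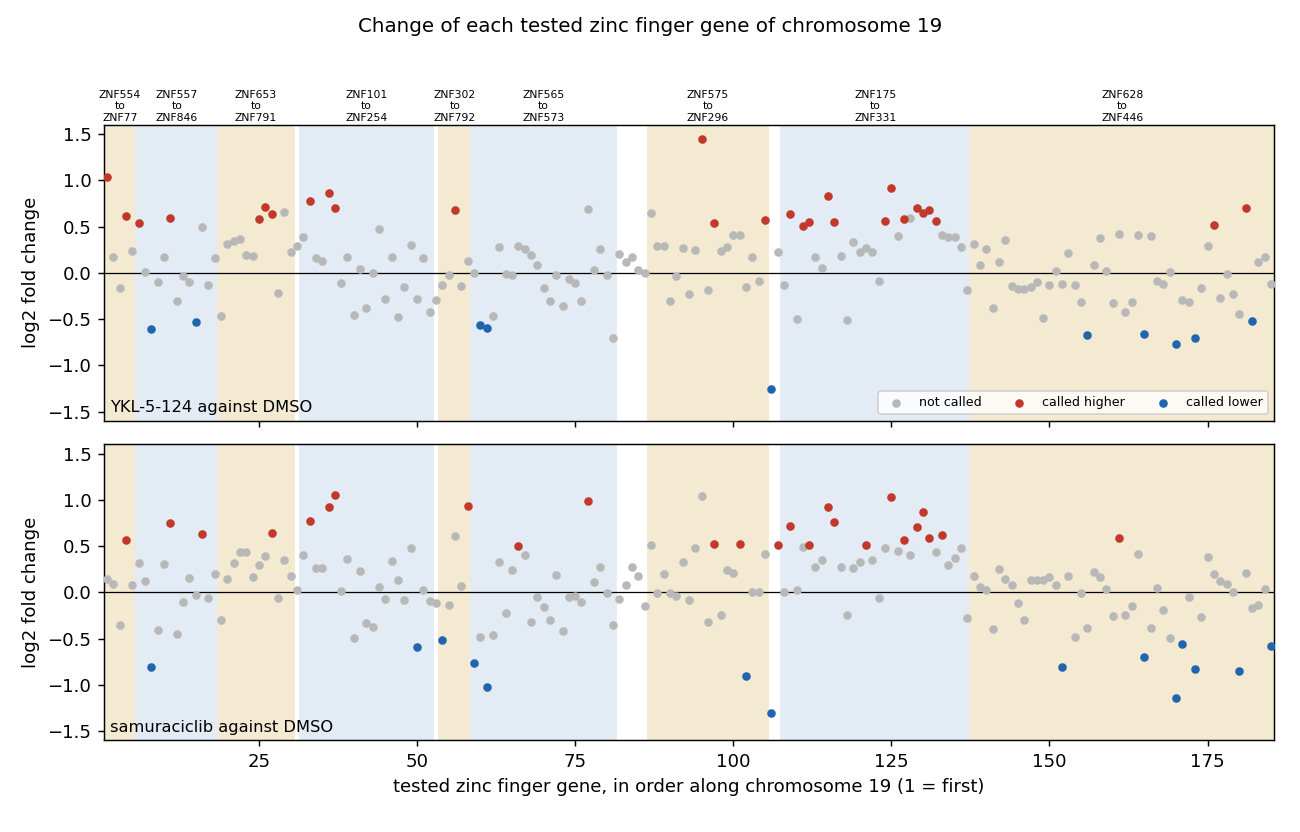
Log2 fold change of each of the 185 tested genes (vertical axis) in their order along chromosome 19 (horizontal axis), with YKL-5-124 above and samuraciclib below. Shaded bands are neighbour groups with at least 5 tested genes. The ZNF175 to ZNF331 band has 12 red points (called higher) above and 11 below and no blue point (called lower), and the ZNF628 to ZNF446 band has 2 red and 5 blue above and 1 red and 7 blue below.

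Tested genes inside the same interval that did not meet the naming rule, whatever their type or family, did not share this. Of the 12 other genes tested there, 0 rose and 0 fell with YKL-5-124 (median -0.11), and 1 rose and 1 fell with samuraciclib (median -0.14). Summed over the cluster, DMSO libraries stood at 314 to 320 CPM, samuraciclib libraries at 403 to 442 and YKL-5-124 libraries at 389 to 421. Every inhibitor library was above every DMSO library. Without the 3 libraries low in RN7SL2, the counts of genes called higher were 11 and 9.

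The genes called higher with both inhibitors in this cluster were ZNF577, ZNF350, ZNF432, ZNF841, ZNF600, ZNF468, ZNF888, ZNF816 and ZNF160. ZNF350 (ZBRK1) is known as a BRCA1-binding repressor and ZNF160 as a repressor of TLR4. With YKL-5-124 alone, ZNF613, ZNF611 and ZNF845 also passed, and with samuraciclib alone ZNF808 and ZNF525 passed. Of the 30 tested genes, 5 had a value below 0 with YKL-5-124: ZNF175, ZNF649, ZNF836, ZNF83 and ZNF331.

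**Figure D3:**
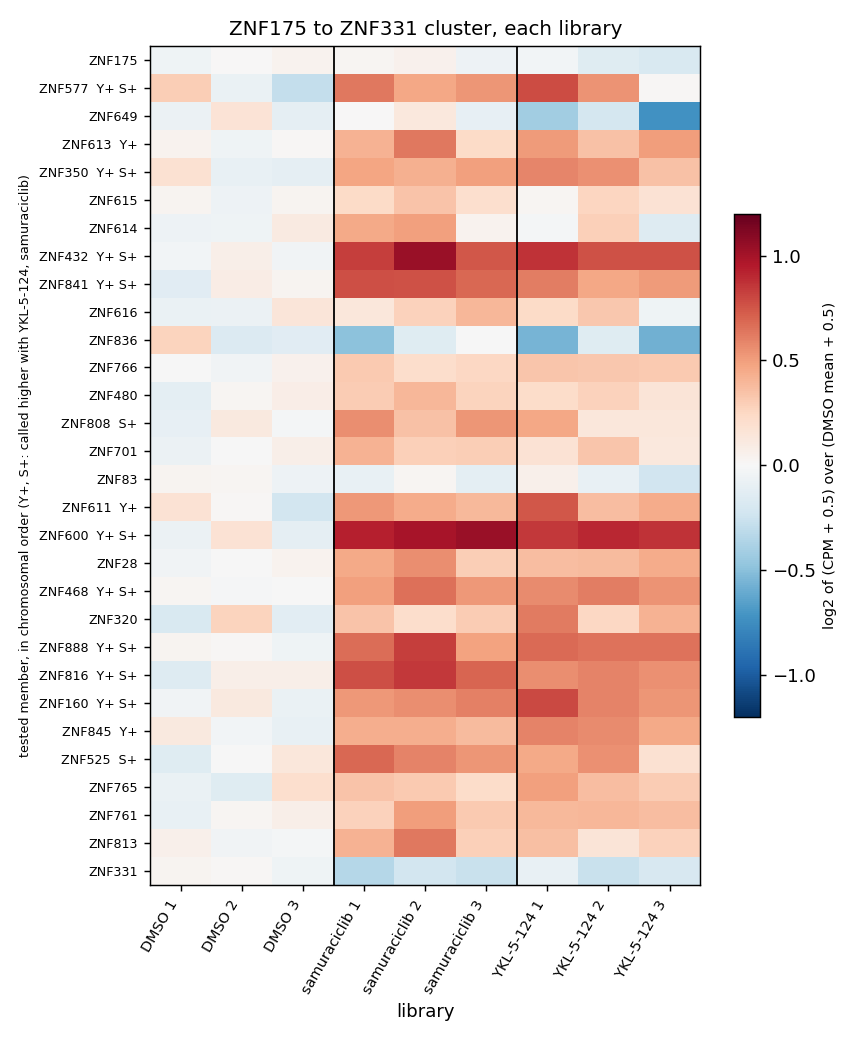
Each tested gene of the ZNF175 to ZNF331 cluster (rows, chromosomal order) in each of the 9 libraries (columns), coloured by the log2 ratio of CPM plus 0.5 to the DMSO mean plus 0.5. Y+ and S+ mark genes called higher with YKL-5-124 and samuraciclib. The 6 inhibitor columns are red for most rows, and ZNF175, ZNF83, ZNF331 and ZNF836 are among the rows that are not.

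ZNF600 (ENSG00000189190, chr19:52749942-52786807, minus strand) had the largest rise in this cluster. Its DMSO libraries stood at 8.24, 9.85 and 8.02 CPM, those with samuraciclib at 17.1, 17.8 and 18.4, and those with YKL-5-124 at 16, 16.8 and 16.3. The inhibitor libraries lay far above the DMSO libraries and close together. The log2 fold change was 0.92 ± 0.10 (SE, n = 3 per group) with YKL-5-124 (edgeR, adjusted p = 3.9e-07) and 1.03 ± 0.10 with samuraciclib (edgeR, adjusted p = 1.2e-07).

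ZNF432 (ENSG00000256087, chr19:52031379-52095738, minus strand) followed. It stood at 7.78, 8.36 and 7.72 CPM with DMSO, 14.6, 16.9 and 13.7 with samuraciclib, and 14.9, 13.8 and 13.8 with YKL-5-124, with no overlap between vehicle and either inhibitor. The log2 fold changes were 0.84 ± 0.10 with YKL-5-124 and 0.92 ± 0.10 with samuraciclib. On the opposite strand, exons of another gene cover 13.6% of its exon bases, and whether the counting used strand is not stated. ZNF888 (0.70 and 0.71), ZNF160 (0.67 and 0.59) and ZNF816 (0.64 and 0.87) came next among the genes named by the rule, with values for YKL-5-124 and then samuraciclib. ZNF841 rose by 0.77 ± 0.09 with samuraciclib and by 0.55 ± 0.09 with YKL-5-124. Without DMSO replicate 1 its YKL-5-124 value was 0.48, under the limit of 0.5. Leaving out each of the 9 libraries in turn, 7 of the 12 genes called with YKL-5-124 and 8 of the 11 called with samuraciclib kept their call every time.

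Within the cluster, the gene at either end had values near 0 or below it. ZNF175, known from work on HIV transcription, stood at 5.16 ± 0.185 CPM (SD, n = 3) with DMSO, 5.18 ± 0.227 with samuraciclib and 4.72 ± 0.297 with YKL-5-124, all overlapping. ZNF331, a gene rearranged in some follicular thyroid adenomas, stood at 22.1 ± 0.687, 18.1 ± 0.808 and 19.4 ± 1.24 CPM. Its log2 fold change was -0.28 ± 0.08 with samuraciclib (edgeR, adjusted p = 0.0077), which did not reach the size limit. ZNF649 was called between the inhibitors and is described with that comparison.

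Risers lay outside this cluster as well. ZNF93, known for repressing LINE-1 elements of primates, stood at 2.98, 2.56 and 3.28 CPM with DMSO, 6.27, 5.06 and 5.55 with samuraciclib, and 6.04, 4.78 and 5.4 with YKL-5-124. All inhibitor libraries were above all DMSO libraries. Its log2 fold change was 0.86 ± 0.15 with YKL-5-124 (edgeR, adjusted p = 0.00016) and 0.93 ± 0.15 with samuraciclib (edgeR, adjusted p = 8.8e-05). ZNF14 rose by 0.78 with each inhibitor (SE 0.18 in both comparisons). Both lie in the cluster from ZNF101 to ZNF254, where 15 of 37 genes, ZNF85 among them, had no count in any library. In that cluster 3 of 21 tested genes rose and 0 fell with YKL-5-124, the third being ZNF486, and the same 3 rose and ZNF681 fell with samuraciclib. The 14.3% called higher with YKL-5-124 is near the 11.9% of all genes. With samuraciclib 14.3% were called higher and 4.76% lower, beside 8.17% and 9.55% of all genes.

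Other groups held a few risers each. In the group from ZNF653 to ZNF791, 3 of 12 tested genes rose (25%, beside 11.9% of all genes) and 0 fell with YKL-5-124. The risers were ZNF44 (0.71 ± 0.21), ZNF799 (0.63 ± 0.18) and ZNF136 (0.58 ± 0.15). Samuraciclib gave 1 higher (8.33%, beside 8.17% of all genes) and 0 lower in this group. The call of ZNF44 was lost without YKL-5-124 replicate 3 (0.52, edgeR, adjusted p = 0.064), and that of ZNF136 without YKL-5-124 replicate 2 (0.49) or without the 3 libraries low in RN7SL2 (0.43). ZNF799 rose by 0.64 ± 0.19 with samuraciclib as well, but without those 3 libraries its values of 0.61 and 0.62 missed the threshold (edgeR, adjusted p = 0.069 and 0.067). It shares 6.93% of its 100-base stretches with other genes, mostly ZNF443. In the group from ZNF575 to ZNF296, 3 of 19 rose and 0 fell with YKL-5-124 (ZNF224, ZNF223 and ZNF296), a share of 15.8% that is also near that of all genes. ZNF224, known as a repressor of the aldolase A gene, stood at 4.98 ± 0.154 CPM with DMSO, 7.18 ± 0.277 with samuraciclib and 7.27 ± 0.184 with YKL-5-124. Its log2 fold change was 0.54 ± 0.11 with YKL-5-124 and 0.52 ± 0.11 with samuraciclib. The latter was 0.50, just under the limit, without DMSO replicate 1 or samuraciclib replicate 1. Exons of an antisense gene cover 42.4% of its exon bases.

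ZNF57 rose by 0.61 ± 0.15 and 0.56 ± 0.15 with YKL-5-124 and samuraciclib, and antisense exons cover 75.2% of its exon bases. Its samuraciclib value was 0.50 without DMSO replicate 3 and 0.44 without samuraciclib replicate 2, just under and under the limit, and 0.38 without the 3 libraries low in RN7SL2. ZNF599 rose with YKL-5-124 only just past the threshold (0.68 ± 0.25, edgeR, adjusted p = 0.033). Its call was lost without DMSO replicate 2 or 3 or any YKL-5-124 library, at values of 0.52 to 0.72, and without the 3 libraries (0.53). ZNF223 stood at 0.172, 0.266 and 0.414 CPM with DMSO, all below the filter level of 0.509, while its samuraciclib libraries were at 0.515, 0.775 and 0.565 and its YKL-5-124 libraries at 1.2, 0.548 and 0.778. It passed the filter only through the groups where it is higher, so its fitted value of 1.45 ± 0.44 with YKL-5-124, at a mean of 12.3 counts, supports nothing. Without YKL-5-124 replicate 1 it was 1.12 (edgeR, adjusted p = 0.074). ZNF486 had 1.05 ± 0.27 with samuraciclib and 0.70 ± 0.28 with YKL-5-124, at 28.8 counts. Its call with YKL-5-124 was lost in 5 of the 9 fits that left out a library, down to 0.47 without YKL-5-124 replicate 3, and both of its calls without the 3 libraries (0.68 and 0.84). ZNF223, ZNF486 and the other genes that are listed only in a count by cluster or are given no CPM are named after their values were seen.

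**Figure D4:**
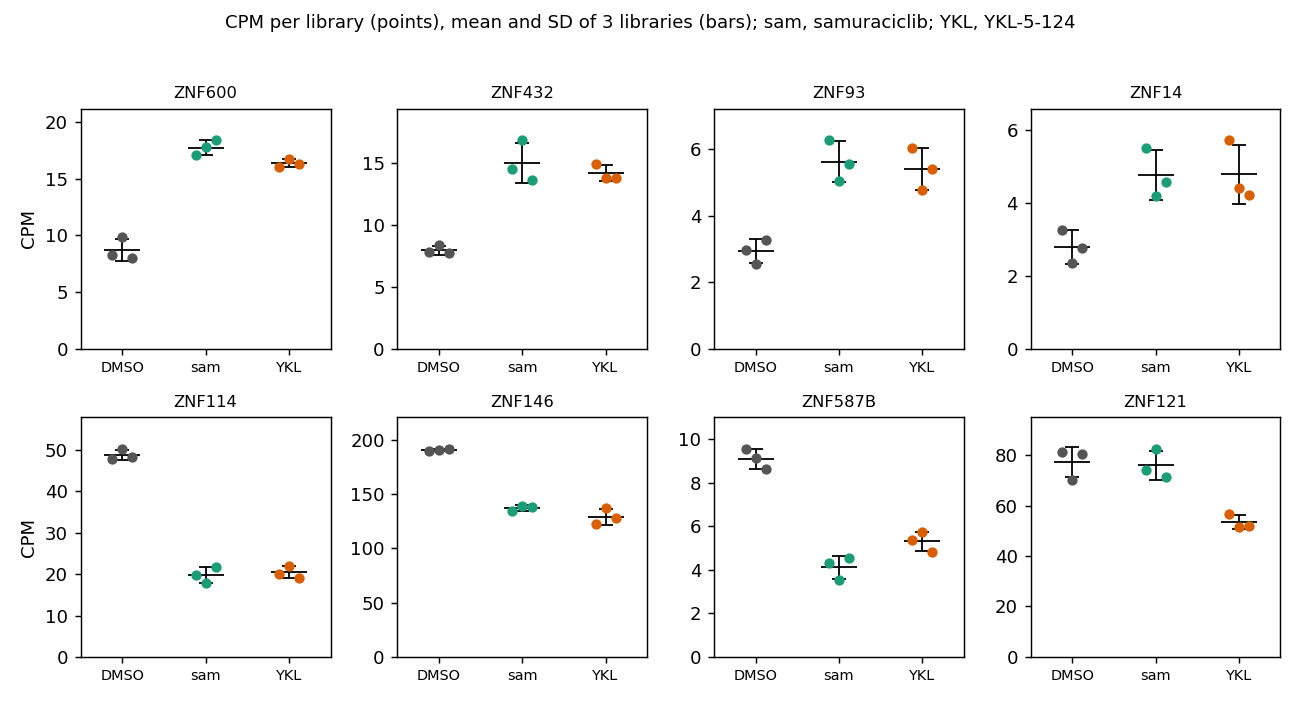
CPM of 8 zinc finger genes in each library (points), with the mean and SD of 3 libraries (bars), for DMSO, samuraciclib (sam) and YKL-5-124 (YKL); every axis starts at 0. ZNF600, ZNF432, ZNF93 and ZNF14 were higher in all 6 inhibitor libraries, ZNF114, ZNF146 and ZNF587B lower in all, and ZNF121 lower with YKL-5-124 only.

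The cluster nearest the end of the long arm, from ZNF628 to ZNF446 (chr19:55476332-58481230, 59 genes, 48 tested), was the largest group. With YKL-5-124, 2 genes rose (ZNF606 and ZNF837) and 5 fell (ZNF587B, ZNF417, ZNF772, ZNF551 and ZNF584), with a median of -0.12. The 10.4% called lower was near the 9.93% of all genes, and the 4.17% called higher was below the 11.9%. With samuraciclib 1 rose (ZNF416) and 7 fell (ZNF587B, ZNF497, ZNF417, ZNF547, ZNF551, ZNF446 and ZNF814), with a median of 0.02. These were 2.08% and 14.6% of those tested, beside 8.17% and 9.55% of all genes. Its sum was 639 to 696 CPM in DMSO libraries, 607 to 648 in samuraciclib libraries and 584 to 618 in YKL-5-124 libraries. Only the YKL-5-124 libraries were all below the DMSO libraries. Of the 29 other genes tested in the interval, 5 rose and 2 fell with YKL-5-124, and 4 rose and 1 fell with samuraciclib.

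ZNF587B stood at 9.56, 9.11 and 8.63 CPM with DMSO, 4.30, 3.51 and 4.52 with samuraciclib, and 5.36, 5.72 and 4.82 with YKL-5-124. No inhibitor library reached the DMSO range. Its log2 fold change was -0.77 ± 0.12 with YKL-5-124 (edgeR, adjusted p = 5.3e-05) and -1.14 ± 0.13 with samuraciclib (edgeR, adjusted p = 1.1e-06). Another gene model on its strand covers 10.9% of its exon bases. ZNF772 stood at 27.2 ± 0.323 CPM with DMSO, 21.0 ± 1.04 with samuraciclib and 17.1 ± 0.426 with YKL-5-124. It fell by 0.67 on the log2 scale with YKL-5-124 (SE 0.07), and its samuraciclib value of -0.38 missed the size limit.

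ZNF551 fell by 0.66 and 0.70 (SE 0.11 in both comparisons), from 15.6 ± 0.242 to 9.91 ± 1.36 CPM with YKL-5-124 and 9.56 ± 1.06 with samuraciclib. ZNF417, which with the closely related ZNF587 is known for repressing HERV-K, had -0.71 ± 0.16 and -0.83 ± 0.17. It shares 17.6% of its 100-base stretches with other genes, mostly ZNF587, so its reads may be divided between the copies. ZNF814 fell with samuraciclib (-0.56 ± 0.11) and stood at -0.30 ± 0.11 with YKL-5-124, and antisense exons cover 19.1% of its exon bases. In the same cluster, ZNF274, which recruits SETDB1 to the ends of zinc finger genes, stood at 31.9 CPM with DMSO, at 34.7 with samuraciclib and at 26.3 with YKL-5-124, and was not called (0.12 ± 0.07 and -0.28 ± 0.07 with samuraciclib and YKL-5-124). ZNF304 had values of 0.01 with YKL-5-124 and 0.08 with samuraciclib.

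The largest fall of all belonged to ZNF114 (ENSG00000178150, chr19:48270102-48287608, plus strand), which lies apart from these clusters. It stood at 48.0, 50.3 and 48.2 CPM with DMSO, 19.8, 17.9 and 21.8 with samuraciclib, and 20.1, 22.1 and 19.2 with YKL-5-124. The inhibitor libraries were far below the DMSO libraries and overlapped between the compounds. The log2 fold change was -1.25 ± 0.08 with YKL-5-124 (edgeR, adjusted p = 3.3e-10) and -1.30 ± 0.08 with samuraciclib (edgeR, adjusted p = 5.1e-10). The difference between the inhibitors was 0.05 ± 0.08.

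ZNF146 (OZF), a protein made almost entirely of fingers, was the most abundant of these RNAs per length. With 46.0 RPKM (CPM per kilobase of the gene model) over the DMSO libraries, it led ZNF787 (21.1), ZNF114 (16.3), ZNF865 (13.6), ZNF581 (13.4) and ZNF121 (10.7). ZNF865 and ZNF581 were within their spread of each other. In CPM ZNF146 stood at 190, 191 and 192 with DMSO, 134, 139 and 138 with samuraciclib, and 122, 137 and 128 with YKL-5-124. It fell by 0.56 on the log2 scale with YKL-5-124 (SE 0.05), and the samuraciclib value of -0.48 ± 0.05 stayed just inside the limit (edgeR, adjusted p = 1.9e-07). Antisense exons cover 10.8% of its exon bases. It lies in the group from ZNF565 to ZNF573, where 0 of 23 tested genes rose and 2 fell (8.70%) with YKL-5-124. All genes stood at 11.9% and 9.93%. Samuraciclib gave 2 higher (ZNF570 and ZNF850) and 2 lower (ZNF566 and ZNF565), 8.70% each, beside 8.17% and 9.55% of all genes. ZNF787 had values of -0.18 and -0.12, ZNF865 of -0.38 and -0.39, and ZNF581 of -0.14 and 0.08, and none of these 3 was called. Another gene on its strand covers 24.9% of the exon bases of ZNF581.

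ZNF566, in the same group, fell by 0.59 with YKL-5-124 (SE 0.16) and by 1.03 with samuraciclib (SE 0.17). Without DMSO replicate 1 the former was -0.49. ZNF414 fell by 0.61 ± 0.12 and 0.80 ± 0.13, and without YKL-5-124 replicate 2 the former was -0.49, inside the limit. ZNF302 fell with samuraciclib (-0.51 ± 0.11), from 11.3 ± 0.576 to 7.93 ± 0.0373 CPM. Without DMSO replicate 1 that value was -0.47. With YKL-5-124 it stood at 10.2 ± 1.06 CPM, overlapping DMSO.

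Several genes with a studied function were described whatever their values. ZNF473 (ZFP100), a component of the U7 particle that processes histone mRNA, rose with samuraciclib, from 12.2 ± 0.781 to 17.4 ± 0.63 CPM (0.52 ± 0.10, edgeR, adjusted p = 0.00023). Without DMSO replicate 2 or 3 it was 0.49, inside the limit. With YKL-5-124 it stood at 14.2 ± 1.43 CPM, and its libraries overlapped those of DMSO. ZNF91, a repressor of SVA retrotransposons, stood at 23.8, 22.6 and 21.4 CPM with DMSO, samuraciclib and YKL-5-124, with values of -0.16 ± 0.08 and -0.08 ± 0.08. ZNF431, known for regulating PTCH1, stood at -0.45 ± 0.08 with YKL-5-124 and -0.49 ± 0.08 with samuraciclib, and ZNF675, a TRAF6-binding protein, at 0.30 ± 0.08 and 0.48 ± 0.08. Both had adjusted p-values under the limit (edgeR, at most 0.0041) but not the size.

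ZNF420 (APAK), a regulator of p53, had -0.31 ± 0.20 and -0.30 ± 0.20, and ZNF43 had 0.17 ± 0.23 and 0.34 ± 0.23. Leaving out single libraries moved ZNF420 between -0.48 and -0.18 with YKL-5-124 and between -0.45 and -0.17 with samuraciclib, and ZNF43 between 0.18 and 0.51 with samuraciclib. ZNF568, known in mice for repressing an Igf2 transcript, was near the filter level, with -0.16 ± 0.44 in YKL-5-124 and -0.16 ± 0.45 in samuraciclib libraries. ZNF382 was below the filter and not tested. Its raw counts were 1, 3 and 1 with DMSO, 4, 5 and 5 with samuraciclib, and 12, 15 and 8 with YKL-5-124. These do not overlap between the groups, at counts too low for the fit.

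Between the inhibitors at the same dose, 4 genes were higher with YKL-5-124 and 5 lower than with samuraciclib. That is 2.16% and 2.70% of the 185, beside 4.46% and 2.46% of all genes (6.92% in either direction), and the median was -0.02. ZNF121 had the smallest adjusted p: 81.1, 70.4 and 80.6 CPM with DMSO, 74.0, 82.6 and 71.5 with samuraciclib, and 56.5, 51.7 and 52.0 with YKL-5-124. All YKL-5-124 libraries were below all others. The difference was -0.51 ± 0.07 (edgeR, adjusted p = 3.2e-05). Against DMSO it was -0.54 ± 0.07 with YKL-5-124 and -0.02 ± 0.07 with samuraciclib. The size, not the test, slipped under 0.5 without samuraciclib replicate 2 (-0.45), YKL-5-124 replicate 2 (-0.49) or YKL-5-124 replicate 3 (-0.49), and without the 3 libraries low in RN7SL2 (-0.43, and -0.48 against DMSO).

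The other 8 differences were close to the threshold. Lower with YKL-5-124 than with samuraciclib were ZNF792 (-0.81 ± 0.26), ZNF460 (-0.62 ± 0.20), ZNF724 (-0.61 ± 0.20) and ZNF649 (-0.52 ± 0.19). Higher were ZNF554 (0.89 ± 0.29), ZNF565 (0.76 ± 0.27), ZNF235 (0.75 ± 0.26) and ZNF552 (0.50 ± 0.18, with overlapping libraries). None of the 9 calls survived the omission of every library in turn, over which the number of calls ranged from 0 to 4 in each direction. Without the 3 libraries low in RN7SL2, 1 higher and 2 lower calls were made. ZNF792, ZNF565, ZNF235 and ZNF552 are named after their values were seen. Overlapping exons cover 44.7% of the exon bases of ZNF724 (same strand) and 24.6% of those of ZNF460 (opposite strand). ZNF554 stood at 0.741 ± 0.0523 CPM with DMSO, 0.829 ± 0.279 with samuraciclib and 1.53 ± 0.169 with YKL-5-124, and its YKL-5-124 libraries were above all the others. Without the 3 libraries its values of 0.99 against DMSO and 1.00 against samuraciclib missed the threshold (edgeR, adjusted p = 0.062 and 0.092). For most genes the difference was small in either direction: the quartiles of the 185 were -0.16 and 0.14.

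The promoters of these genes were described next, since neighbours that move together may share sequence. RefSeq gave 263 windows of 300 bases for 215 of the 246 genes. The ETS core (CGGAAG, both strands) was in 53.6% of them, beside 19.5% of all 35116 promoters and 39.6% of those of ZNF genes on other chromosomes. A CCAAT box (CCAAT, both strands) was in 49.0%, beside 34.6% of all promoters, and a GC box (GGGCGG, both strands) in 65.4%, beside 45.0%. A TATA box (TATAAA, both strands) was in 2.66%, beside 11.5%. Promoters of ZNF genes on other chromosomes stood closer: 39.3% had a CCAAT box, 56.5% a GC box and 5.61% a TATA box. Among promoters of all protein-coding genes in the table these shares were 34.7%, 57.0% and 9.26%, and 23.9% had the ETS core. None of these 4 strings holds another.

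These elements varied between clusters. A CCAAT box was in 88.5% of windows of the group from ZNF653 to ZNF791 and in 96.7% of those of the group from ZNF101 to ZNF254, but in 28.9% of those from ZNF175 to ZNF331. Among tested genes with a window, the 107 with the ETS core had a median log2 fold change of 0.08 with YKL-5-124 and the 59 without it 0.12. With samuraciclib these medians were 0.12 and 0.10. The CREB (TGACGTCA), E-box (CACGTG), NRF1 and ZNF143 strings (both strands) were in at most 4.56% of the windows, and in at most 7.26% of all promoters.

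ACTACATT, in capitals in the sequences of ZNF331, ZNF587B, ZNF772 and ZNF551 above, was searched for after it had been seen in these windows, so what follows is a description. It was in 39 of 263 windows (14.8%), belonging to 38 genes, beside 0.991% of all promoters and 3.16% of those of ZNF genes on other chromosomes. It shares its opening ACTACA with the ZNF143 string, and whether it is part of variant ZNF143 sites was not tested. Of its 41 matches, 26 were on the gene's strand, and the median position was 99 bases before the start. It was in 18 of 60 windows of the group from ZNF628 to ZNF446, 11 of 40 from ZNF565 to ZNF573 and 7 of 24 from ZNF575 to ZNF296, but in only 1 of 45 from ZNF175 to ZNF331, that of ZNF331 itself.

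Medians were lower among genes with ACTACATT than among the rest. Among 36 tested genes with it, 1 rose (ZNF599) and 5 fell (ZNF146, ZNF772, ZNF551, ZNF587B and ZNF584) with YKL-5-124, with a median log2 fold change of -0.17. The genes whose windows are shown above with it, ZNF331, ZNF587B, ZNF772 and ZNF551, are among these 36 and were not taken out. Among 130 without it, 24 rose (18.5%) and 3 fell (2.31%), with a median of 0.17. With samuraciclib 2 rose (ZNF850 and ZNF416) and 3 fell (ZNF551, ZNF587B and ZNF814) among the genes with it (median -0.18). Among those without, 20 rose (15.4%) and 9 fell (6.92%), with a median of 0.16. The genes with it that fell, 13.9% and 8.33% of those tested, were near the shares of all genes (9.93% and 9.55%), while those that rose, 2.78% and 5.56%, were below them (11.9% and 8.17%). Among genes clear of other gene models, the median of the 17 with it was only -0.04 with YKL-5-124 (-0.19 with samuraciclib), against 0.17 (0.18) for the 59 without. The cluster moves with this split, and its part was not tested. Within the group from ZNF628 to ZNF446 the medians with YKL-5-124 were -0.30 (17 genes) and -0.02 (27 genes). In the group from ZNF565 to ZNF573 they were -0.23 (10 genes) and -0.02 (12 genes), and in the group from ZNF575 to ZNF296 0.07 (6 genes) and 0.29 (11 genes). For samuraciclib the medians with and without it were -0.25 and 0.08 in the group from ZNF628 to ZNF446. They were -0.13 and -0.04 from ZNF565 to ZNF573, and -0.02 and 0.21 from ZNF575 to ZNF296.

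**Figure D5:**
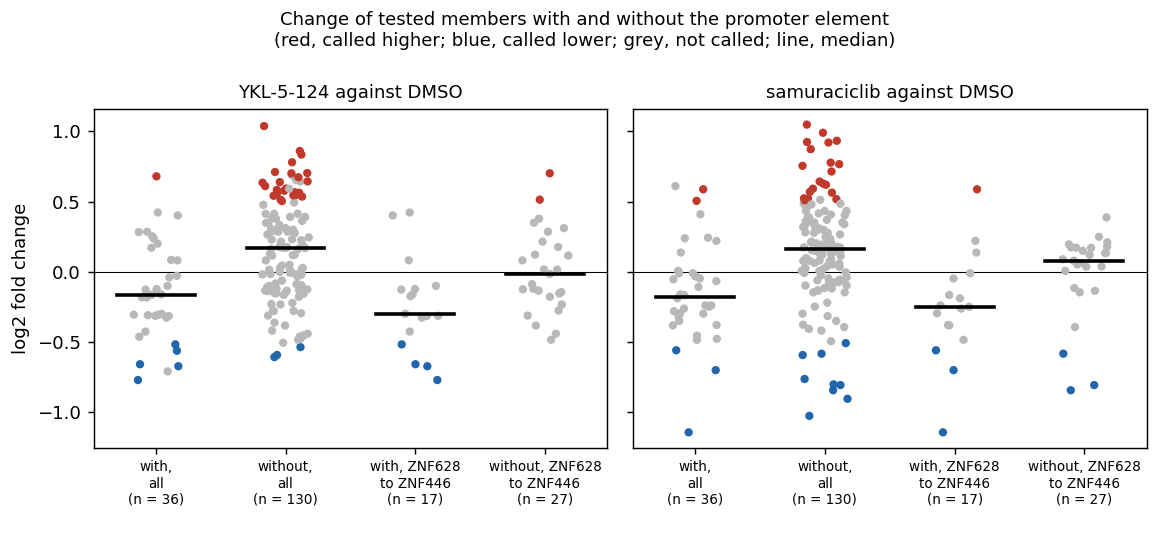
Log2 fold change of tested zinc finger genes with a promoter window, by whether the window holds the 8-base element, for all clusters and for the ZNF628 to ZNF446 cluster alone. Black lines are medians: -0.17 with and 0.17 without the element for YKL-5-124 (left), -0.18 and 0.16 for samuraciclib (right). The point clouds overlap widely.

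Outside the chromosome 19 ZNF genes the element was rare. Of 115 other protein-coding genes with it that were tested, 3 rose (2.61%) and 18 fell (15.7%) with YKL-5-124 (median -0.13). Samuraciclib gave 0 higher and 17 lower (14.8%), with a median of -0.09. The 115 include 7 ZNF genes of other chromosomes. Of these, 3 fell (42.9%) with YKL-5-124 and 2 (28.6%) with samuraciclib, and 0 rose with either. Of 9890 other protein-coding genes without the element, 886 rose (8.96%) and 984 fell (9.95%) with YKL-5-124, with a median of -0.02. Samuraciclib gave 646 higher (6.53%) and 921 lower (9.31%), with a median of -0.01. No test was run on these splits.

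Rank correlations of other gene properties with the response to either inhibitor against DMSO were weak or near 0. Across the 185 genes, which are not independent, Spearman's rho between the number of C2H2 patterns and the log2 fold change was 0.09 with YKL-5-124 and 0.14 with samuraciclib. For the length of the gene model it was -0.03 and -0.02, and for the mean CPM -0.13 and 0.03. Between the inhibitors rho was -0.25 for the mean CPM, -0.09 for the C2H2 patterns and -0.03 for the length. Of the 62 genes with 15 to 32 patterns, 12 rose and 1 fell with YKL-5-124, and 15 rose and 4 fell with samuraciclib. Of the 64 with 1 to 10 patterns, 8 rose and 7 fell, and 5 and 6, and of the 59 with 11 to 14 patterns, 8 rose and 2 fell, and 5 and 4. The shares called higher, in order from fewest to most patterns, were 12.5%, 13.6% and 19.4% with YKL-5-124 (all genes 11.9%) and 7.81%, 8.47% and 24.2% with samuraciclib (all genes 8.17%).

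The partners through which KRAB zinc finger proteins repress were measured alongside, as a list of 35 genes for the TRIM28 and SETDB1 complexes, heterochromatin proteins, the NuRD and HUSH complexes, histone and DNA methylation, and SUMO. With YKL-5-124, 1 of 35 rose and 2 fell, with samuraciclib 0 rose and 1 fell, and between the inhibitors 0 were called by edgeR at these limits. The shares with YKL-5-124, 2.86% and 5.71%, were below those of all genes (11.9% and 9.93%). So were those with samuraciclib, 0% and 2.86% (all genes 8.17% and 9.55%). Between the inhibitors all genes stood at 4.46% and 2.46%. With YKL-5-124 and samuraciclib the medians of the list were -0.12 and -0.03. By adjusted p alone, 6 of the 35 were higher and 17 lower with YKL-5-124 (all genes 24.1% and 25.2%). Samuraciclib gave 6 and 11 (21% and 23.1%), and the comparison between the inhibitors 2 and 9 (11.8% and 13.2%). By this looser limit the share lower was above that of all genes in each comparison. The share higher was below it.

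ATF7IP2, a paralogue of the SETDB1 cofactor ATF7IP, rose with YKL-5-124 (0.73 ± 0.11) and stood at 0.44 with samuraciclib. DNMT1, the maintenance DNA methyltransferase, fell by 0.58 with YKL-5-124 (SE 0.05) from 420 CPM with DMSO. UHRF1, which brings DNMT1 to hemimethylated DNA, fell by 0.53 and 0.55 with YKL-5-124 and samuraciclib. Without DMSO replicate 1 the former was -0.50, and without samuraciclib replicate 2 or the 3 libraries low in RN7SL2 the latter was -0.49 or -0.48, all inside the limit. TRIM28 stood at 307 ± 16.1 CPM with DMSO, with values of -0.32 and -0.19. SETDB1, at 30.1 ± 0.776 CPM, had 0.04 and -0.05, and CBX5, a heterochromatin protein at 315 ± 12.9 CPM, had 0.41 and 0.40. These 3 were not called.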

How the data were processed

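Per the labels and the study's methods, the authors selected poly(A) RNA from FaDu cells, aligned read pairs to GRCh38 with HISAT2 and counted them per GENCODE gene (featureCounts 2.0.6). The deposited values are whole-number counts without normalization. The annotation release and the strand setting are not given in the sources used here. Groups follow the labels. With edgeR 4.0.16 (R 4.3.3), genes were filtered by filterByExpr on the 3 groups, scaled by TMM factors and tested in 1 quasi-likelihood fit of all 9 libraries, two-sided. SE is the log2 fold change over the square root of F, and the common coefficient of variation was 0.0631. Fits were tested on simulated data. Named genes were, per comparison, up to 8 largest rises and falls among calls without overlap whose mean count reached 50, the 6 highest RPKM, a fixed list, the smallest p between the inhibitors in each direction and per neighbour group of at least 5 tested genes, and called KRAB partners with TRIM28, SETDB1, CBX5 and DNMT1. Members, lists and rules were chosen with earlier results of these data known. Exon overlap, shared 100-base stretches and C2H2 patterns came from GENCODE v44, in which all 246 IDs were found and 100 had the same start and end, and promoters from RefSeq. Proteins were not used here. Alternatives covered DESeq2 1.42.0, scaling, filters, thresholds, the genes and libraries in the fit and the replicate number as a block.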

Additional observations from a re-analysis of the deposited data

Results flagged for a closer look

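The test between the inhibitors at equal dose set 9 of the 185 zinc finger genes apart, each by its log2 fold change of YKL-5-124 against samuraciclib. Lower with YKL-5-124 were ZNF792 at -0.81, ZNF460 at -0.62, ZNF724 at -0.61, ZNF649 at -0.52 and ZNF121 at -0.51. Higher were ZNF554 at 0.89, ZNF565 at 0.76, ZNF235 at 0.75 and ZNF552 at 0.50. For ZNF792, ZNF565 and ZNF235 the samuraciclib libraries differed from DMSO (0.93, -0.76 and -0.91) while YKL-5-124 stood at 0.13, -0.00 and -0.15. These samuraciclib calls were lost without DMSO replicate 3 for ZNF792 (0.77, edgeR, adjusted p = 0.054), without the 3 libraries low in RN7SL2 for ZNF235 (-0.85, edgeR, adjusted p = 0.074) and ZNF565 (-0.88), and for ZNF565 also without DMSO replicate 2 or 3 or samuraciclib replicate 1 or 3 (-0.75 to -0.64). For ZNF121 and ZNF554 it was YKL-5-124 that differed (-0.54 and 1.04), with samuraciclib at -0.02 and 0.15. The number of calls across all genes in this comparison was 1112 of 16065 (6.92%). Of the 9, DESeq2 called 2. Groups of 3 libraries are too small for a test of outlying libraries.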

How the results depend on the processing

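Direction was checked for 103 named values, those called or further from 0, and 0 changed direction under any alternative run. Uncalled values close to 0 were left out of this check. The main counts, higher and lower, were 28 and 10 (YKL-5-124), 25 and 14 (samuraciclib) and 4 and 5 (YKL-5-124 against samuraciclib). Adjusted p alone gave 51 and 25, 46 and 28, and, lower between the inhibitors, 12. A log2 fold change beyond 1 gave 2 and 1, 2 and 3, and 0 and 0, and glmTreat 3 and 2, 5 and 3, and 0 and 0; the 0 of glmTreat compares with 4 and 5 calls by the main test and 0 and 2 by DESeq2. Library size alone gave 43 and 5 with YKL-5-124 and 1 lower between the inhibitors. A mean count of at least 50 gave 9 lower with samuraciclib and 1 and 2 between the inhibitors. Between the inhibitors, higher calls numbered 2 with RLE factors and 1 with no filter, and 1 with only the 2 groups compared; without the 3 libraries low in RN7SL2 there were 1 and 2. Leaving out each library gave 21 to 28 and 9 to 14, 18 to 28 and 12 to 14, and 0 to 4 and 0 to 4, and in the ZNF175 to ZNF331 cluster 8 to 12 and 9 to 13 higher.
Cluster counts (12 and 11) were 19 and 22 by adjusted p alone, 0 and 1 beyond 1, and 2 and 4 by glmTreat. The 82 tested genes clear of other gene models (added after seeing the data) held 14 and 5, 8 and 5, and 1 and 2 calls, out of fewer genes, and 6 and 5 in the 14 of the cluster.

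Median log2 fold changes (0.12, 0.12 and -0.02) were 0.248, 0.181 and 0.0532 with library size alone, and with YKL-5-124 0.15 without a filter, 0.0735 at a mean count of at least 50, 0.0898 without the 3 libraries, 0.16 by DESeq2 and 0.17 in genes clear of other models; leaving out libraries gave 0.0732 to 0.124, 0.0916 to 0.14 and -0.0476 to -0.00959. In those clear genes, the medians with and without ACTACATT were -0.04 and 0.17 with YKL-5-124 and -0.19 and 0.18 with samuraciclib. For KRAB partners, library size alone gave 2 higher and 0 lower with YKL-5-124 and 0 lower with samuraciclib; a mean count of at least 50 gave 1 lower with YKL-5-124; adjusted p alone gave 6 and 17, 6 and 11, and 2 and 9; beyond 1 and glmTreat gave 0 in each direction; without the 3 libraries 0 were lower with samuraciclib; single libraries gave 1 to 1 and 1 to 2, 0 to 1 and 0 to 2, and 0 to 0.

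The main fit did not pair samples by replicate number. Correlations of deviations ran from -0.09 to 0.23 for same-numbered libraries and from -0.16 to 0.19 for the others. Between the inhibitors, same-numbered pairs stood at 0.07, 0.23 and 0.15, and the others between -0.16 and 0.02. DMSO replicate 3 correlated at 0.18 with samuraciclib replicate 2 and at 0.19 with YKL-5-124 replicate 2, all low in RN7SL2. With the replicate block the counts were 26 and 11, 26 and 15, and 2 and 5. The cause of these shifts was not tested. The median tested gene had 139.9 counts per library, which limits how small a change can be called.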
